A study of Mus musculus with 3 samples.

Results

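The regions described here are the array's tiled regions nearest the starts of 6 housekeeping genes, Tbp, Polr2a, Actb, Gapdh, B2m and Ppia. Non-control probes within 10000 bp of each start were joined where their starts lay at most 500 bp apart, and the joined region nearest the start was taken, which gave 6 of the 28880 tiled regions with at least 3 probes and 124 of 409597 placed probes. Gene starts on mouse build mm9 were given to the nearest kb and were not checked against an annotation of that build, so distances from a start carry that uncertainty. All 6 regions had values on all arrays, and no region was lost to a filter.

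The material was frontal cortex of naive male C57BL/6 mice aged 2 months. DNA was pooled from 3 mice per pool, and 3 pools were profiled by methylated DNA immunoprecipitation (MeDIP). Sonicated DNA (2 µg) was pulled down with 10 µg of an antibody to 5-methylcytosine that, per the labels, leaves hydroxymethylated DNA unbound. Bound (Cy5) and input DNA (Cy3) were amplified genome-wide and shared 1 array per pool, in the same dye orientation throughout, so a dye effect and enrichment cannot be told apart. There was 1 group, with no treatment, second genotype or unmethylated control, and each pool mixes the cell types of the tissue, whose label cannot be checked against transcripts in DNA data. The sample titles number the replicates 1 to 3, while the descriptions call each array biological replicate 1. The titles were followed, and p-values cover the spread between these 3 arrays.

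Promoters of widely expressed genes usually lie in CpG-rich stretches that stay free of cytosine methylation in somatic tissues. TBP, the TATA-binding protein encoded by Tbp, is a DNA-binding subunit of the factor TFIID, which helps to position RNA polymerase II at transcription start sites. The series concerns whether methylation at start sites blocks that binding. An antibody against 5-methylcytosine pulls down more DNA where more methylated CpGs lie together, so a low ratio of bound over input can mean few CpGs as well as unmethylated ones. A log2 ratio is therefore not a methylation percentage.

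The promoter sequences are shown because the number of CpGs bears on how much methylated DNA a fragment could offer, and because TBP binds TATA elements. RefSeq windows from 250 bases before to 50 bases after the start, on build GRCm38.p6, were found for 5 of the 6 genes, all but Actb. The 250 bases before the start are printed 5′ to 3′ on the gene's strand, with CpG dinucleotides in capitals. They were not placed on mm9, so no probe is assigned to a base of them.
Tbp (GRCm38.p6, chr17:15499638-15499887, plus strand): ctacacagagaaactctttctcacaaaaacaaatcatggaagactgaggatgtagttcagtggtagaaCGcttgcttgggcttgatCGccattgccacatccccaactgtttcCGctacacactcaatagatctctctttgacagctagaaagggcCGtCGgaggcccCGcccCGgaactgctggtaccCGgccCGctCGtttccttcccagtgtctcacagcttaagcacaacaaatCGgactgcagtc
Polr2a (GRCm38.p6, chr11:69758634-69758883, minus strand): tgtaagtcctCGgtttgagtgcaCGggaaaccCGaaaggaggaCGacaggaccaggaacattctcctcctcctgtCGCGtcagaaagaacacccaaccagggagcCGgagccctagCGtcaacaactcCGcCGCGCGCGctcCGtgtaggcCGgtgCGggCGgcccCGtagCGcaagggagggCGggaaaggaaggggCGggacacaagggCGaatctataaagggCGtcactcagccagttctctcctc
B2m (GRCm38.p6, chr2:122147437-122147686, plus strand): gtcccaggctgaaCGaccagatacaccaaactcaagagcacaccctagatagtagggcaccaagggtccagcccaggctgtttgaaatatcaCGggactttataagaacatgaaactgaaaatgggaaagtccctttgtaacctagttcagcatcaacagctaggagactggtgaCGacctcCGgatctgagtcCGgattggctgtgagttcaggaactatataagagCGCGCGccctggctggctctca
Gapdh (GRCm38.p6, chr6:125165774-125166023, minus strand): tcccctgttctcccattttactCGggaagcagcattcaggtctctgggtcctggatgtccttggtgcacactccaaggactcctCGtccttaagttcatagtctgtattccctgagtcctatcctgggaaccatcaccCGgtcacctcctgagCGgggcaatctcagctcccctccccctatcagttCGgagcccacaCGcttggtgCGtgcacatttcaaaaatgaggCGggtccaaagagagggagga
Ppia (GRCm38.p6, chr11:6415617-6415866, plus strand): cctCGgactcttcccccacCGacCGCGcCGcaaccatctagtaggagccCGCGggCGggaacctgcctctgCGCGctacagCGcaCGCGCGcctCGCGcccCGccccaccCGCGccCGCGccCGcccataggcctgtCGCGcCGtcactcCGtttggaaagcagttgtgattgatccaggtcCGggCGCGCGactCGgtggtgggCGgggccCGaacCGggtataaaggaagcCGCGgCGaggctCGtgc

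CpG content differed between these windows. Ppia held 43 CpGs in the 300 bases, more than 97.4% of the 32851 promoter windows in the RefSeq table. Polr2a held 30 and Tbp 17. B2m and Gapdh held 14 and 12, against a median of 7 over all windows. The ratio of observed to expected CpGs was 1.16 for Ppia, 0.995 for Polr2a, 0.803 for Tbp, 0.682 for B2m and 0.501 for Gapdh, with a median of 0.384 over the table. The letters TATAAA, searched on both strands and found in 13.6% of all windows, began at -33 from the start in Polr2a and at -29 in Ppia. On the gene's strand near these positions, TATAAA was found in 1.99% of all windows. B2m had TATATAA at -32 (3.24% of all windows on either strand, 0.569% near this position on the gene's strand) and TATAAA on the opposite strand at -152. The windows of Tbp and Gapdh held neither string. The searched strings do not overlap in any of these windows.

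All 6 promoter regions had a lower ratio of bound over input DNA than the median probe, and they did so on each of the 3 arrays, although over 15 alternatives B2m moved to 0.15 where dim bound signals were raised to a floor. Each value is the log2 of bound over input signal less that of the array's median probe, with the SD over 3 arrays, and calls are limma's 1-group test with adjusted p under 0.05. Of 28880 tiled regions 38.1% were called lower and 28.0% higher. Of the 6 promoter regions 6 were lower and 0 higher, with adjusted p from 7.01e-06 to 0.000414. Their median was -0.94, against -0.11 for all regions. The regions of Actb, Gapdh and Tbp were longer than 1800 bp, a length class in which 54.4% of 3099 regions were lower. Those of Polr2a, B2m and Ppia fell in the class of 1000 to 1800 bp, in which 36.8% of 19765 were lower.

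**Figure D1:**
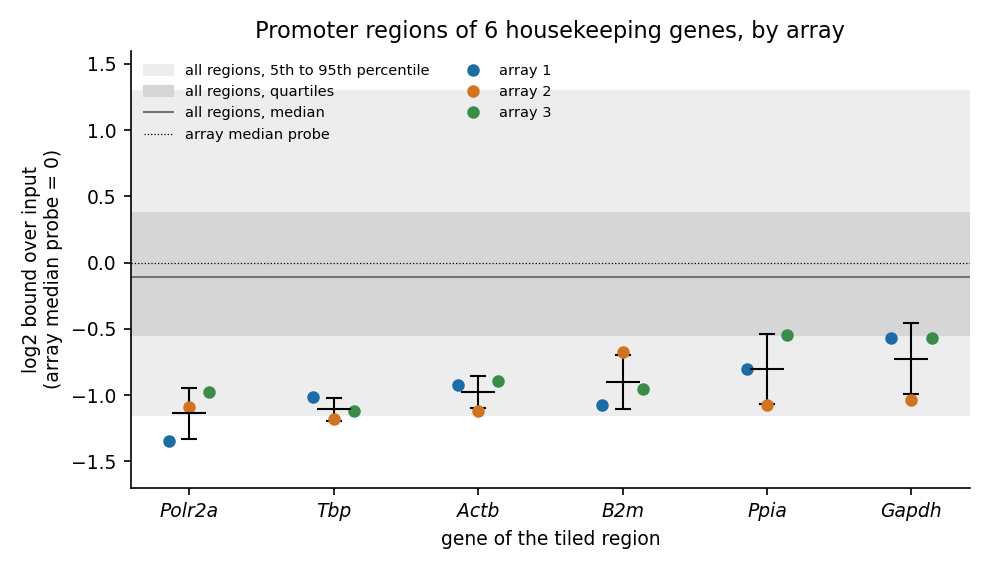
Log2 ratio of bound over input DNA (vertical axis) of each promoter region on 3 arrays (points), with the mean and SD as bars; bands give the quartiles and the 5th to 95th percentiles of all 28880 tiled regions. All 18 points lie below 0, and Polr2a and Tbp have the lowest means, at -1.14 and -1.10.

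How low a ratio could be read was limited by the array's background. The scanner software placed input DNA of these regions well above background in 329 of 372 measurements (88.4%, against 73.8% over all probes). Bound DNA was above it in 198 (53.2%, against 54.7%). Where bound DNA is not above background its true level is unknown and may lie above or below the measured ratio. With such bound signals raised to the lowest signal called well above background on that array, 2 of the 6 regions were still lower, Polr2a (-0.68) and Actb (-0.34). Tbp was then at -0.17, Gapdh at -0.20, Ppia at -0.16 and B2m at 0.15. The floor also lifted the median of all regions, to 0.61, and the 6 regions stayed between the 2.54th and the 25.5th percentile of them. The share of all regions called lower with the floor is not given here. The 2 of 6 can therefore not be set against the 38.1% of all regions called lower without it. Arrays differed in this respect, since bound DNA was above background at 65.9% of all probes on array 1, 47.3% on array 2 and 51.0% on array 3.

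The Tbp region ran over 2068 bp of chromosome 17, from 15635037 to 15637104, almost all of it at lower coordinates than the start of the gene, which is on the plus strand. Psmb1, a proteasome subunit gene, is the protein-coding neighbour on that side in RefSeq. The region's log2 ratios were -1.01, -1.18 and -1.12 on arrays 1 to 3. Their mean of -1.10 ± 0.09 (n = 3) put the ratio 2.15-fold below the median probe (limma adjusted p = 7.01e-06), and 5.79% of all regions were lower. The arrays lay close together here, with the smallest SD of the 6 regions.

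Within the Tbp region 12 of 18 probes were lower by the test on single probes, 2 were higher and 4 were not called, where 23.6% of all probes tested were lower and 22.4% higher. The lowest 4 consecutive probes, from 15636700 to 15637047, averaged -2.18 ± 0.10. They ended next to the stated start, and their bound DNA was above background in 1 of 12 measurements while input was above it in 11, so the true ratio may differ from this value. The next probe, from 15637060 to 15637104, was instead at 1.64, 1.70 and 1.58, and both of its channels were above background on all arrays. The other higher probe, from 15636010 to 15636069, was not above background in either channel on any array. Its ratio of 1.39 ± 0.68, which entered the region mean, therefore rests on dim signals. The probe nearest the stated start, from 15636998 to 15637047, was at -1.57 ± 0.55, and the lowest, from 15636811 to 15636857, at -2.80 ± 0.18. Low values were therefore not shared by every probe around the start.

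Polr2a encodes the largest subunit of RNA polymerase II. Its region covered 1750 bp of chromosome 11, from 69571563 to 69573312, and lay on both sides of the stated start. The ratios were -1.35, -1.09 and -0.98, with a mean of -1.14 ± 0.19 (n = 3), 2.20-fold below the median probe (limma adjusted p = 8.46e-06). Input was above background in 64 of 66 measurements and bound DNA in 37. Of 22 probes 15 were lower and 1 was higher, and 8 lower probes followed each other over 559 bp, from 69572630 to 69573188. Single probes ranged from -2.46 ± 0.24 (69572940 to 69572991) to 0.77 ± 0.18 (69571787 to 69571831), and the one nearest the stated start was at -0.85 ± 0.55 and was not called. Of the 15 lower probes 6 had bound DNA above background on all arrays. Polr2a kept a ratio of -1.02 (limma adjusted p = 2.39e-14) over its 8 probes that were above background in bound as well as input DNA on each array, a filter that itself selects probes with more bound DNA.

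Actb and Gapdh encode cytoplasmic β-actin and a glycolytic enzyme, and had the longest regions. The Actb region spanned 2633 bp of chromosome 5, from 143666988 to 143669620. Its ratios were -0.92, -1.12 and -0.90, with a mean of -0.98 ± 0.12 (n = 3), 1.97-fold below the median probe (limma adjusted p = 1.96e-05). The values on the 3 arrays were again close together. The region was not uniform. At its higher coordinates 6 probes in a row were lower, from 143669091 to 143669515, and the lowest 4 of its probes (143669091 to 143669355) averaged -2.34 ± 0.20. At lower coordinates the highest 4 consecutive probes, from 143667496 to 143667806, averaged 0.26 ± 0.18. However, the probe from 143667351 to 143667405 was at -2.78 ± 0.28 and was called lower. The first probe of the region (143666988 to 143667032) was at 1.78 ± 0.24, measured above background in bound and input DNA alike. The probe nearest the stated start was at -1.90 ± 0.51 and was called lower, and the lowest probe (143669153 to 143669209) was at -3.07 ± 0.62. At both of these probes and at the one at -2.78, bound DNA was above background on 0 arrays and input on 3. In the lowest 4 probes bound DNA was above background in 6 of 12 measurements. The true ratios may therefore differ from these low values. Probes within 1000 bp of the stated start averaged -0.65.

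The Gapdh region covered 2497 bp of chromosome 6, from 125115139 to 125117635, and began 139 bp above the stated start in coordinates. Gapdh is on the minus strand, so the region lay upstream of that start. Its ratios were -0.57, -1.03 and -0.57, so that array 2 lay below the other two, and the mean was -0.72 ± 0.27 (n = 3), 1.65-fold below the median probe (limma adjusted p = 0.000414). Low and high probes alternated along the region. Of 29 probes 11 were lower, 3 were higher and 15 were not called, and no more than 2 lower probes followed each other. The probe from 125116834 to 125116878 was at 1.42 ± 0.26 and the next one, from 125116969 to 125117024, at -3.28 ± 0.61. The highest probe was at 1.57 ± 0.26 (125117527 to 125117571), and the one nearest the start was at -0.64 ± 0.34 and was not called. The probe at 1.42 had bound DNA above background on 3 arrays and the one at -3.28 on 0. All 3 higher probes of the region had bound DNA above background on each array. Gapdh was not called with the deposited series matrix values (-0.20, limma adjusted p = 0.157) or over its 17 probes with both channels above background (-0.06, limma adjusted p = 0.684), and within 1000 bp of the stated start it averaged -0.46.

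B2m encodes the light chain of class I major histocompatibility molecules. Its region lay on chromosome 2 from 121972243 to 121973592, with ratios of -1.07, -0.67 and -0.95 and a mean of -0.90 ± 0.20 (n = 3, limma adjusted p = 5.5e-05). It had the dimmest signals of the 6 regions, with bound DNA above background in 17 of 45 measurements and input in 35. The low values lay on 1 side. From 121972243 to 121972504 the first 4 probes, also the highest 4 in a row, averaged 0.12 ± 0.34. Their input was above background in 5 of 12 measurements. From 121973005 to 121973335, starting next to the stated start, the lowest 4 in a row averaged -2.16 ± 0.47, with input above background in 12 of 12 and bound DNA in 4. The probe nearest the start was at -2.66 ± 1.67 and the lowest, from 121973076 to 121973135, at -2.67 ± 0.84. Of 15 probes 5 were lower, and the 1 called higher (1.03 ± 0.53) was not above background in either channel on any array.

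Ppia encodes the prolyl isomerase cyclophilin A. Its region ran from 6314281 to 6315618 on chromosome 11 and ended 382 bp before the stated start. The ratios were -0.80, -1.07 and -0.54, and the mean was -0.80 ± 0.26 (n = 3, limma adjusted p = 0.000186). The low probes lay nearest the gene. The first 4 probes, from 6314281 to 6314828, were the highest 4 in a row and averaged 0.16 ± 0.19. The last 4, from 6315348 to 6315618, were the lowest 4 in a row. They averaged -2.31 ± 0.40, with bound DNA above background in 7 of 12 measurements and input in 12. All of these last 4 probes were called lower, and they made up most of the 5 lower probes among 12. The lowest was at -3.69 ± 0.47 (6315493 to 6315540), the highest at 0.74 ± 0.37 and not called, and the one nearest the start at -1.63 ± 0.25. Over the 6 probes within 1000 bp of the stated start the mean was -1.65. Among them was the lowest probe, where bound DNA was above background on 0 arrays and input on 3, so its true ratio may differ.

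**Figure D2:**
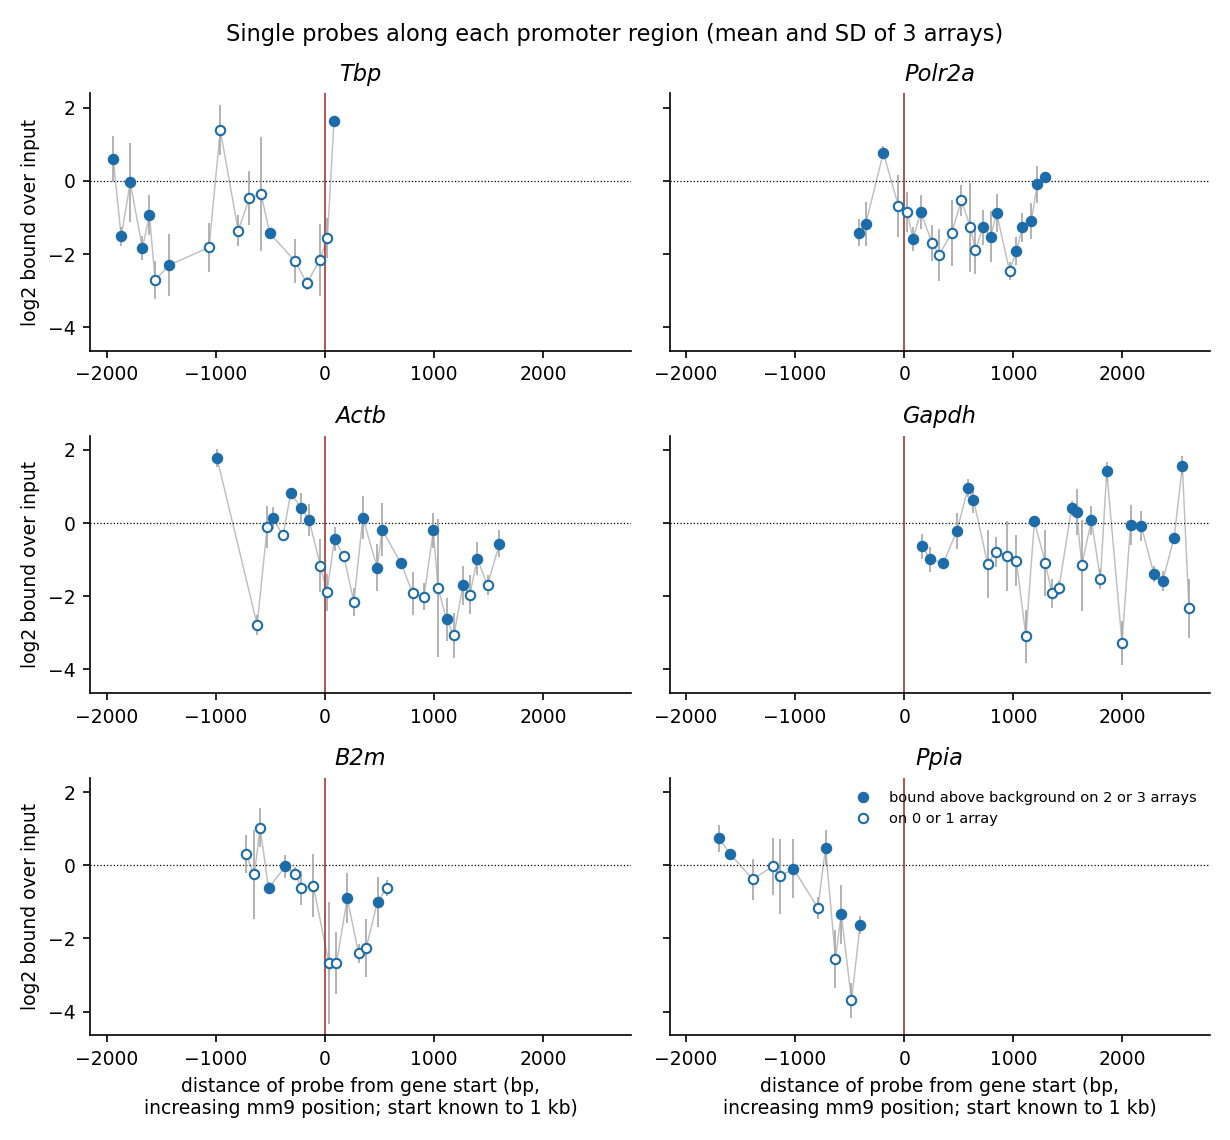
Log2 ratio of bound over input (vertical axis, mean and SD of 3 arrays) of each probe against its distance from the stated gene start in bp (red line), with filled symbols where bound DNA was above background on 2 or 3 arrays. In B2m and Ppia the 4 probes at the lowest coordinates average 0.12 and 0.16 and the lowest stretches of 4 average -2.16 and -2.31, while low and high probes alternate in Gapdh.

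Over the 6 regions 63 of 124 probes were lower (50.8%, against 23.6% of all 409559 probes tested) and 9 were higher (7.26%, against 22.4%). Of the 63 lower probes 27 never had bound DNA above background, and 21 had it above on each array. Neighbouring probes overlap or share DNA fragments and are not replicates.

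Averaged over whole regions, the levels in rising order were Polr2a, Tbp, Actb, B2m, Ppia and Gapdh. The order depended on the probes taken. Within 1000 bp of the stated start Ppia was lowest at -1.65, Polr2a was at -1.22, Tbp at -0.93, B2m at -0.90, Actb at -0.65 and Gapdh at -0.46. Each of these means includes probes whose bound DNA was above background on 0 arrays, in Ppia its lowest probe. With probes joined at up to 300 bp Actb (-1.08) lay below Tbp (-1.01). Neighbours in the whole-region order differed by 0.03 to 0.13 on the log2 scale. Actb exceeded Tbp by 0.13 ± 0.09 on 3 of 3 arrays, and the sign was mixed between arrays for the other neighbours. Even the ends of the order, Gapdh minus Polr2a, differed by 0.41 ± 0.36, with 0.78, 0.05 and 0.41 on arrays 1 to 3. A two-sided exact permutation of signs gave p = 0.25 for this difference and for Actb minus Tbp, the smallest that 3 arrays allow, and 0.75 after Benjamini-Hochberg adjustment over the 6 differences compared. Different regions differ in CpG content and probes, so the order is not one of methylation.

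Low ratios came with different signals in the channels. In the Polr2a region input DNA was 0.91 ± 0.07 above the median of all tiled regions on the log2 scale, and bound DNA was near it at 0.03 ± 0.24. Gapdh was brighter than that median in both channels, by 0.87 ± 0.18 in input and by 0.41 ± 0.17 in bound DNA. Tbp had input near the median (0.18 ± 0.16) and bound DNA below it (-0.67 ± 0.11). B2m was dimmer in both, at -0.25 ± 0.16 and -0.89 ± 0.20. Actb and Ppia had input above the median (0.60 ± 0.28 and 0.40 ± 0.17) and bound DNA around it (-0.12 ± 0.26 and -0.15 ± 0.24). Probe sequence and amplification also set such signals, and their part was not tested.

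**Figure D3:**
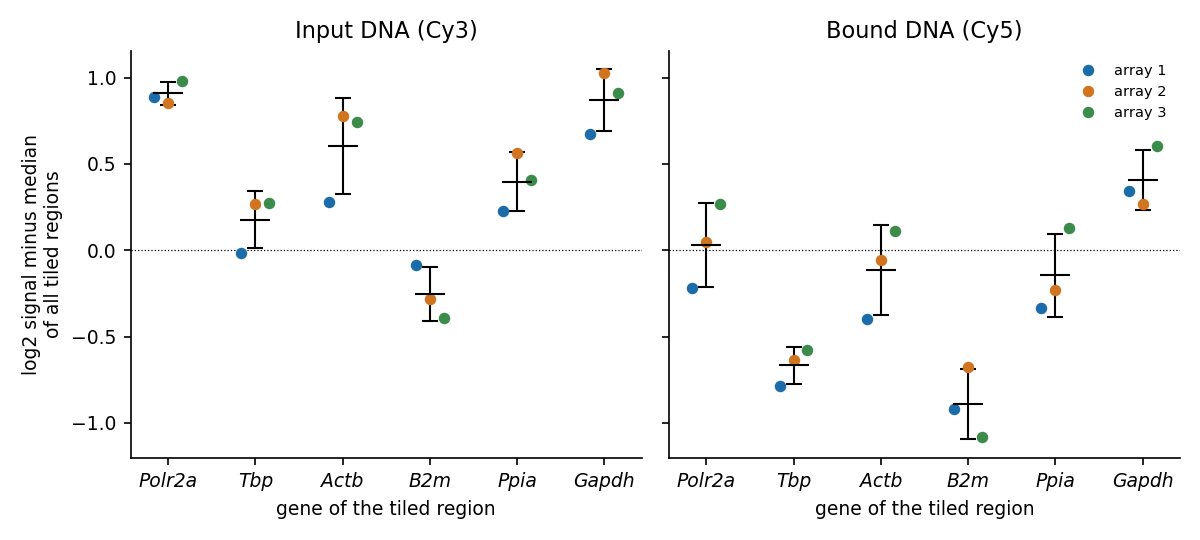
Mean log2 processed signal of each promoter region minus the median of all tiled regions (vertical axis), in input DNA and in bound DNA, on 3 arrays (points) with the mean and SD as bars. Tbp and B2m lie below 0 in bound DNA on every array, while Polr2a, Gapdh, Actb and Ppia lie above 0 in input on every array.

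Tiled sequence farther from 2 of these genes was not low. Besides the promoter regions, 4 tiled regions lay within 10000 bp of a start, of which 3 were called higher (28.0% of all regions were) and none lower. Downstream of the Tbp start by 3371 bp, the region from 15640371 to 15641698 was at 0.43, 0.77 and 0.63, a mean of 0.61 ± 0.17 (n = 3, limma adjusted p = 0.000872). It exceeded the Tbp promoter region by 1.71 ± 0.26 on 3 of 3 arrays (exact sign-flip permutation p = 0.25), but its input was above background in 18 of 45 measurements, so much of its value rests on dim signals. On the side of Polr2a upstream of its start, 17 probes from 69578481 to 69580225 were at 0.58 ± 0.12 (limma adjusted p = 0.000985), with input above background in all 51 measurements and bound DNA in 46. That region exceeded the Polr2a promoter region by 1.72 ± 0.31 on 3 of 3 arrays (exact sign-flip permutation p = 0.25). Between them, 3 probes from 69576244 to 69576520 were at 0.56 ± 0.60 and were called higher. Their values were 1.16, 0.53 and -0.03 on arrays 1 to 3, so array 3 was not above the median probe. A further 3 probes, from 69575366 to 69575622, were at 0.26 ± 0.24 and were not called. A single probe near Actb, from 143658078 to 143658137, was at -0.10 ± 0.09 and was not tested.

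The centre of a region, taken as probes within 200 bp of its midpoint, was compared with the edges more than 500 bp away, with limma over 21386 regions. A lower centre was called in 32.4% of these and a higher one in 17.0%. Of the 6 promoter regions B2m had a lower centre, at -1.24 ± 0.52 relative to its edges (n = 3, limma adjusted p = 0.00227). Ppia had a higher one, by 0.93 ± 0.52 (limma adjusted p = 0.0114), and its low probes lay at the end of the region. Tbp also had a higher centre, by 0.63 ± 0.29 (limma adjusted p = 0.0474), though 1 of its 3 central probes was not above background in either channel on any array. That call was lost on leaving out any 1 array (0.47 to 0.73, limma adjusted p from 0.0841 to 0.186), with normexp (0.21), the scanner's log ratio (0.57) or the median over probes (0.15), and turned to -0.39 with the series matrix values. The call for Ppia was lost without array 2 (0.95, limma adjusted p = 0.0595), without array 3 (0.66, limma adjusted p = 0.113), with the series matrix values (0.29) and with the median over probes (0.60). The call for B2m was lost with normexp (-0.27), the series matrix values (-0.36) and the median over probes (-0.78). At each central probe of Tbp and B2m, bound DNA was above background on at most 1 array. At those of Ppia it was above background on 0 to 2 arrays, and input on 1 to 3. The centre values of these regions therefore rest largely on dim bound signals. Actb, Gapdh and Polr2a were not called, but Gapdh gained a higher centre with normexp (0.24, limma adjusted p = 0.0355), with both channels above background (0.52, limma adjusted p = 0.0127) and with the floor (0.67, limma adjusted p = 0.0296). Polr2a gained one with normexp (0.52, limma adjusted p = 0.00365) and with the floor (0.68, limma adjusted p = 0.023). In 5 of the 6 regions, all but B2m, the stated start lay more than 200 bp from the midpoint, so this contrast is not one between a start site and its flanks.

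**Figure D4:**
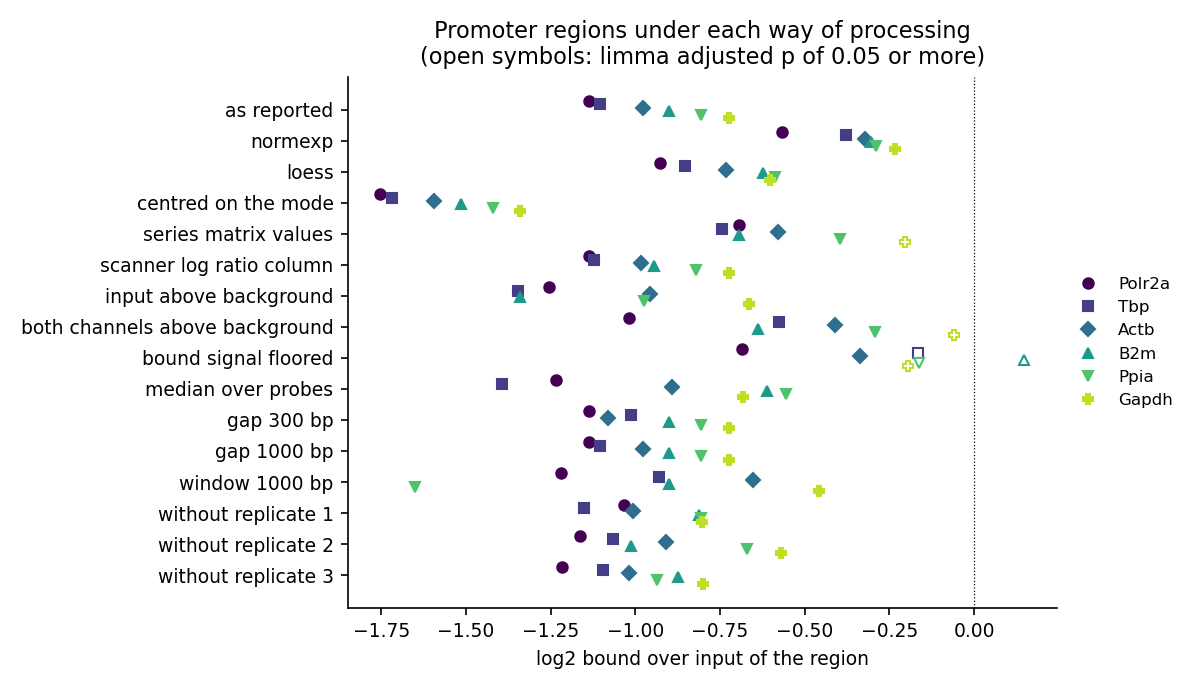
Log2 ratio of bound over input of each promoter region (horizontal axis) as reported and under 15 other ways of processing (rows), with open symbols where limma's adjusted p was 0.05 or more. Under the other ways the values lie below 0 in 89 of 90 cases, the exception being B2m at 0.15 with the bound signal floored.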

How the data were processed

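Two-colour intensities were deposited for 420288 spots per array. Per the file headers, the processed intensities were made by Agilent Feature Extraction 10.7.3.1 on build mm9, with background subtracted, spatial trends removed and each dye scaled. Per the file headers, a further column holds log10 ratios of red over green. The authors' matrix values, also deposited, are log2 ratios that tracked a ratio of bound over input on each array (r = 0.999 or more across spots). Which signals entered that correlation is not specified here. The matrix values were not interchangeable with the processed ratios used above. Centred in the same way, they gave a median of -0.64 for the 6 regions, against -0.94, and covered 16 of the 18 Tbp probes. The 3 columns share 1 minimum and 1 maximum (-7.78 and 4.42) and have medians of -0.97, and their scaling is not given here.

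The log2 ratio of processed signals was taken per spot without outlier-flagged and control spots, centred on each array's median (-0.19, -0.19 and -0.09 before centring), and averaged per probe and then per region. Tests were limma 3.58.1 in R 4.3.3, fitted over all regions or probes with Benjamini-Hochberg adjustment at 0.05, and were tested on simulated data. The simulated regions were mostly unshifted and had no background signal, unlike these arrays. That run therefore does not vouch for the calls made here. No loess or quantile step was used, since many probes may shift one way. The floored alternative kept the unfloored zero. With 3 arrays, their number limits the precision. The normexp alternative used spot medians (offset 50), as the files hold no spot means. All 6 genes were named by rule, with the lowest, highest and start-nearest probe of each region and further regions within 10000 bp by position. The genes and lists were chosen with earlier results of these data known, and the stretches of 4 probes were added after their values were seen. These stretches are the lowest and highest 4 consecutive probes of a region, so a contrast between them is one of picked extremes. Other genes of the transcription machinery were not analysed here, because gene positions on mm9 were not used beyond these 6 starts.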

Additional observations from a re-analysis of the deposited data

How the results depend on the processing

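Of 90 values of the 6 regions under 15 alternatives, 84 kept both their direction and their side of the threshold. The floor on bound signal left 2 of 6 regions lower, with B2m at 0.15. The share of all regions called lower with the floor is not given here. Gapdh was also not called with the series matrix values or with both channels above background. The median of the 6 regions (-0.94) was -0.31 with normexp, -0.68 with loess, -1.55 with centring on the mode, -0.64 with the series matrix values, -1.11 with input above background, -0.49 with both channels above background, -0.18 with the bound signal floored and -0.79 with the median over probes. With 1 array left out it was -0.98 to -0.91. The zero point moved with some of these, since the median of all regions was -0.72 with the mode, 0.31 with both channels above background and 0.61 with the floor. The 6 regions lay 0.83 below the median of all regions as reported and 0.28 to 0.88 below it over the alternatives. Of 60 values of centre minus edges 41 kept direction and call. Polr2a turned to 0.52 with normexp and 0.68 with the floor, and Tbp to -0.39 with the series matrix values, and the causes were not tested. Signal over background limits how low a bound level can be read.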
